A study of Mus musculus with 24 samples.

Results

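Adipocyte genes were followed in whole extensor digitorum longus (EDL) and soleus (SOL) muscles of mice with myofiber-specific OSKM induction. The 10 genes are Adipoq, Plin1, Cidec, Retn, Cfd, Fabp4, Lep, Pparg, Ucp1 and Car3. They were picked by symbol, as known products of fat cells, from the 24537 genes of the deposited count table, and all 10 were found there. The study asked how the reprogramming factors Oct4, Sox2, Klf4 and c-Myc (OSKM) act in myofibers and on the cells around them. EDL is a fast-twitch and SOL a slow-twitch muscle of the hindlimb, and both were sequenced whole, with any fat between or around the fibers.

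All mice were Acta1-Cre/4Fhet animals of 2 months on regular chow. Controls included, they carried 1 copy of a doxycycline-inducible OSKM cassette and of an rtTA transactivator behind a loxP-flanked stop, and all had doxycycline (Dox) in their drinking water at 1 mg/ml. Muscles were taken after 2.5 days, 5.5 days or 8.5 days of Dox. Cre+ mice also had Acta1-Cre, which removes the stop in myofibers. Cre- mice lacked it. This gave 12 groups of 2 libraries, or 24 libraries, with 36088781 to 54679082 counts each. Groups of 2 are too small for an exact permutation test to reach the 0.05 level, so the tests come from 1 model (edgeR) over 15478 genes and all 24 libraries, with Benjamini-Hochberg adjustment. A gene was called where the adjusted p was below 0.05 and the log2 fold change was beyond 0.5 in either direction.

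Pou5f1 (Oct4) separated the genotypes less well after 5.5 days than on the other days. It lay at 0.0896 FPKM (counts scaled to exon length and library total) or below in the 12 Cre- libraries and between 5.02 and 76.2 FPKM in the Cre+ libraries of 2.5 and 8.5 days. In the Cre+ libraries of 5.5 days it lay at 1.02 and 27.7 FPKM in EDL and at only 0.0785 and 0.387 FPKM in SOL. The study set aside samples without OSKM expression, whereas all 24 libraries are kept here. In Cre- muscles all 10 slow fiber genes were called lower and all 10 fast fiber genes higher in EDL than in SOL. Over all tested genes these shares were 13.3% and 11.6%. In Cre+ muscles 10 of 10 slow genes were lower and 8 of 10 fast genes higher (14.5% and 13.1% of all tested genes), so the muscle labels held. The labels give no sex. Xist, which is transcribed from the inactive X chromosome of females, was at 0.0517 to 1.05 CPM (counts scaled to the library total) in the 8 libraries of 2.5 days and at 114 to 369 CPM in the 16 others, so sex as read from Xist and the shortest Dox time cannot be told apart. Liver transcripts such as Alb (albumin) were high in Cre- mice after 8.5 days, most so in SOL (501 and 3719 counts of Alb, against 45 and 49 in Cre+ mice). In EDL of that day Alb had 180 and 312 counts in Cre- and 41 and 31 in Cre+ mice.

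White adipocytes store triglyceride in 1 large droplet and release hormones into the blood. In skeletal muscle they lie between the fibers and along the fascia, in numbers that depend on the muscle, the animal and the dissection. Pparg is the nuclear receptor that drives adipocyte differentiation. Plin1 coats the droplet and gates lipolysis, and Cidec fuses small droplets into large ones. Adipoq (adiponectin), Lep (leptin), Retn (resistin) and Cfd (adipsin, complement factor D) are secreted. Fabp4 carries fatty acids in adipocytes and is also made by capillary endothelial cells and macrophages. Car3 (carbonic anhydrase III) is abundant in adipocytes and in slow muscle fibers. Ucp1 uncouples respiration in brown and beige fat.

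The genes lie on mouse build mm10 at chr16:23146536-23157968 (Adipoq, plus strand), chr7:79721164-79732776 (Plin1, minus), chr6:113424636-113435755 (Cidec, minus), chr8:3655770-3659818 (Retn, plus) and chr10:79890853-79892655 (Cfd, plus). The others lie at chr6:29060221-29073876 (Lep, plus), chr6:115360951-115490401 (Pparg, plus), chr3:10204343-10208576 (Fabp4, minus), chr3:14863538-14872373 (Car3, plus) and chr8:83290348-83298456 (Ucp1, plus). Counts are over the exons of each gene. Adipoq, Plin1, Cidec, Retn, Cfd and Lep rose and fell together from library to library (values further on), so the 100 bases before a RefSeq transcription start of each are shown, 5′ to 3′ on the gene's own strand, on GRCm38. The Cidec start used lies just outside the gene coordinates given above. Another Cidec start, with its window at chr6:113434715-113435014, is not shown. Capitals mark the palindrome TTGCGCAA, a binding sequence of the C/EBP factors of adipocyte differentiation.
Adipoq, chr16:23146436-23146535: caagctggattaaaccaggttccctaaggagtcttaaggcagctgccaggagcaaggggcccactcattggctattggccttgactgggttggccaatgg
Plin1, chr7:79732777-79732876: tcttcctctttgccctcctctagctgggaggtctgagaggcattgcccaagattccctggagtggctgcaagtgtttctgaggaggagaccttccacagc
Cidec, chr6:113435761-113435860: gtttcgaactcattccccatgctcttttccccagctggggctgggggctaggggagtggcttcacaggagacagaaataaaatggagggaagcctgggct
Retn, chr8:3655670-3655769: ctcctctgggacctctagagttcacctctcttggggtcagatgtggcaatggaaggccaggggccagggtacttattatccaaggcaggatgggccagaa
Cfd, chr10:79890753-79890852: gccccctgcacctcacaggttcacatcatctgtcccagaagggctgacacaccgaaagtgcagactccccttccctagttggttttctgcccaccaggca
Lep, chr6:29060121-29060220: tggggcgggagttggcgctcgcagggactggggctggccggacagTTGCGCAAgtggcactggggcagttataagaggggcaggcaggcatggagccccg

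RefSeq windows from 250 bases before to 50 after the start were held for 8 of the 10 genes, Fabp4 and Car3 being the exceptions, and each was searched on both strands for 5 motifs. These 8 genes had 11 windows, since some have several starts. TTGCGCAA stood in 1 of the 8 genes (1 of 11 windows), Lep, 55 bases before the start, and in 0.183% of all 32851 windows. TTGCNNCAA stood in 0 of the 8 genes and in 2.08% of windows. AGGTCA, the half-site of nuclear receptors such as Pparg, stood in Pparg itself and in Ucp1 (3 of 11 windows), and in 16.3% of all windows. TATAAA stood in 1 Pparg window, on the opposite strand, and in 13.6% of windows. CACCC, a core of Klf binding sequences, stood in 5 of the 8 genes (6 of 11 windows) and in 57.5% of all windows. These are matches of letters, and none was shared by all 6 genes shown.

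Of the 10 genes, 9 were detected in all 24 libraries. On the per-length scale Car3 had the highest median FPKM in SOL, at 2717, followed by Fabp4 at 473 and Cfd at 152. The more adipocyte-restricted genes were far lower, with medians in SOL of 19.8 FPKM for Adipoq, 10.3 for Retn, 7.16 for Cidec, 6.31 for Plin1, 2.89 for Pparg and 1.40 for Lep. In SOL the ranges of Car3 (1558 to 3301 FPKM), Fabp4 (350 to 698) and Cfd (17.0 to 328) did not overlap, whereas from Cfd downward the ranges of neighbors in this order did. Cidec, for one, spread 13.2-fold from lowest to highest library and Plin1 27.4-fold, although within each SOL library Cidec was above Plin1. In EDL the order of medians was the same except that Pparg, at 1.37 FPKM, stood above Plin1, at 1.07.

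Ucp1 was not detectable. It had 0 to 2 counts in each of the 24 libraries, below the limit of 3 counts that a count of 0 allows, which is 0.0549 to 0.0831 CPM depending on the library. It passed no filter on low counts and was not tested. A limit of this kind covers counting error only, whereas the edgeR intervals given further on also include the spread between replicates.

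**Figure D1:**
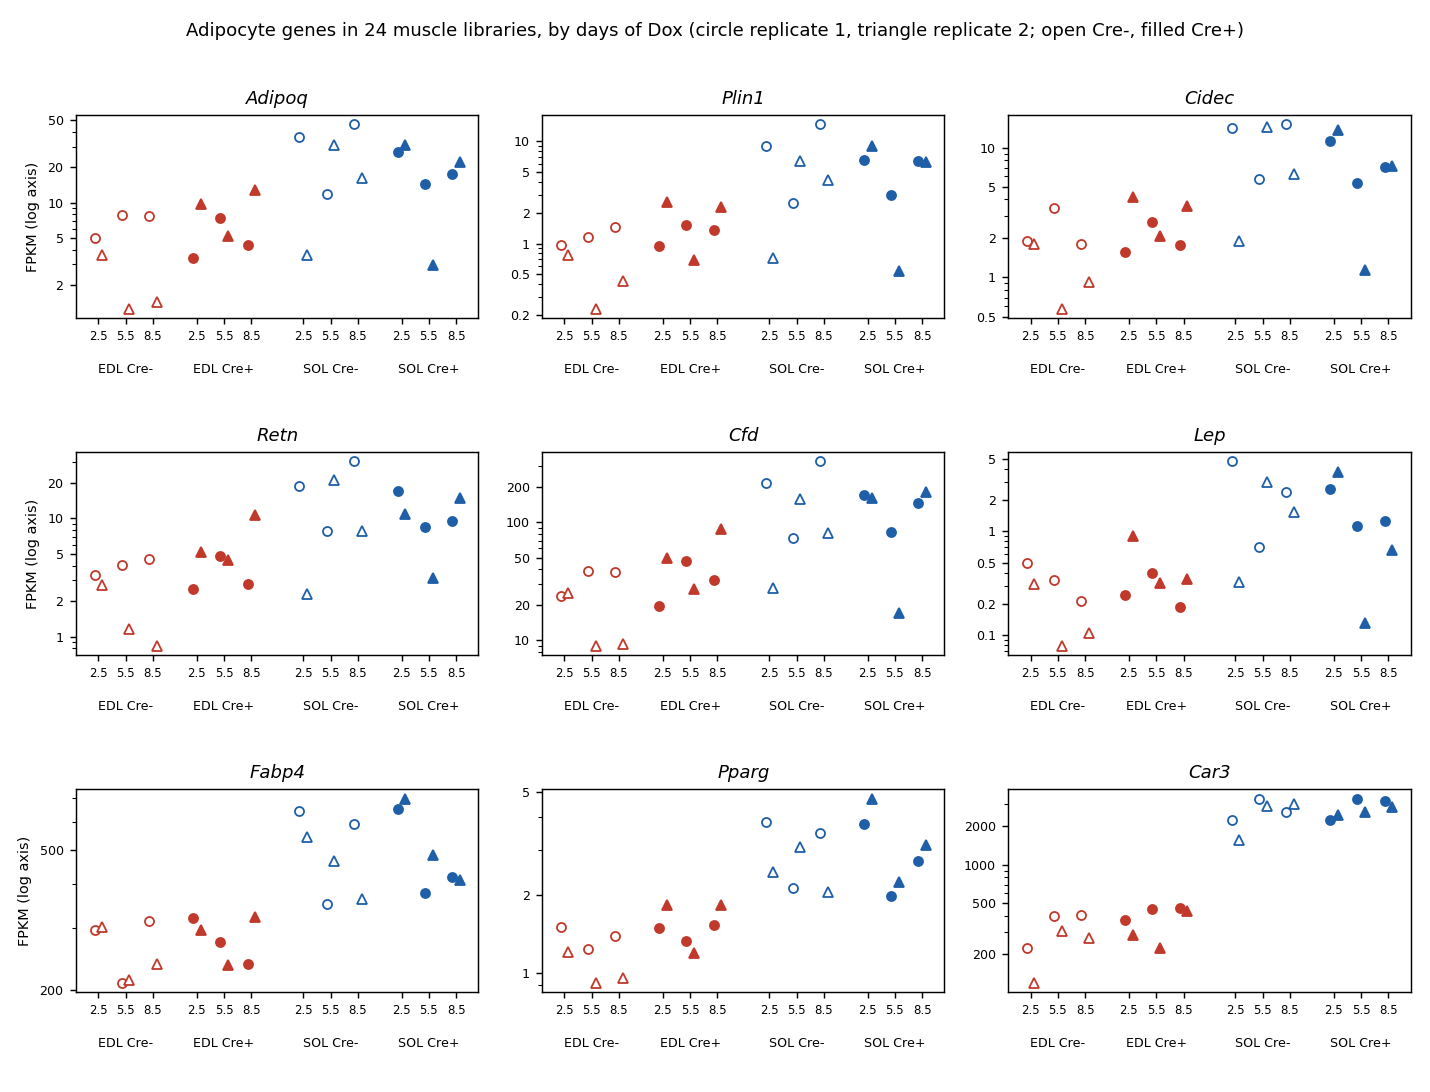
Level of 9 adipocyte genes in each of the 24 libraries, in FPKM on log axes, by muscle, genotype and days of Dox on the x axis (red EDL, blue SOL, open Cre-, filled Cre+, circle replicate 1, triangle replicate 2). SOL lies above EDL without overlap for Fabp4, Pparg and Car3, whereas for the 6 genes of the upper rows 2 to 6 SOL libraries fall into the EDL range, with Cre- 2.5 days replicate 2 and Cre+ 5.5 days replicate 2 always among them.

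Adipocyte transcripts were higher in SOL than in EDL. In Cre- muscles all 9 tested genes were lower in EDL, against 13.3% of all tested genes called lower and 11.6% called higher. The median log2 fold change of the 9 was -2.40, beside -0.02 over all tested genes. Adipoq lay between 1.26 and 7.81 FPKM in the 6 Cre- EDL libraries (median 4.32) and between 3.63 and 46.3 in the 6 Cre- SOL libraries (median 23.5). The ranges met only through the second SOL replicate of 2.5 days, which had 3.63 FPKM where its partner had 35.9. Adipoq was 5.06-fold lower in EDL (log2 fold change -2.34 ± 0.61 SE, edgeR adjusted p = 0.00478).

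The hormones and the droplet proteins moved by similar amounts. Lep was 8.36-fold lower in Cre- EDL than in Cre- SOL (log2 fold change -3.06 ± 0.64, edgeR adjusted p = 0.000882), with 0.0783 to 0.494 FPKM in EDL (median 0.262) and 0.322 to 4.76 in SOL (median 1.96). Lep had 11 to 71 counts in these EDL libraries, and its standard error was the largest of the 9. Plin1 was 6.72-fold lower, with 0.231 to 1.45 FPKM in EDL (median 0.867) and 0.716 to 14.6 in SOL (median 5.25). Cidec, Retn and Cfd were 5.29-, 4.95- and 5.69-fold lower, all at edgeR adjusted p values between 0.00125 and 0.00318.

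Fabp4, Pparg and Car3 had smaller spreads, and their EDL and SOL ranges did not overlap. The share of all tested genes without such overlap is not given here, so this describes these genes only. Fabp4 lay between 209 and 321 FPKM in the 12 EDL libraries and between 350 and 698 in the 12 SOL libraries, and was 1.78-fold lower in Cre- EDL (log2 fold change -0.83 ± 0.13, edgeR adjusted p = 8.35e-05). Pparg lay between 0.918 and 1.84 FPKM in EDL and between 2.00 and 4.73 in SOL, a 2.24-fold difference in Cre- muscles (log2 fold change -1.16 ± 0.18, edgeR adjusted p = 4.18e-05). The largest fold of the 9 was that of Car3, from 119 to 459 FPKM in EDL to 1558 to 3301 in SOL, 8.82-fold in Cre- muscles (log2 fold change -3.14 ± 0.20, edgeR adjusted p = 1.28e-09). Markers of other cells that make Fabp4 or Car3 are given beside these folds. The summed level of the 10 slow fiber genes was 1985 to 6808 CPM in EDL and 52645 to 81384 CPM in SOL, and that of 10 endothelial genes 377 to 548 CPM in EDL and 440 to 812 CPM in SOL. Of the endothelial genes 1 was called lower in EDL in Cre- muscles (13.3% of all tested genes) and 7 in Cre+ muscles (14.5%). The 8 macrophage genes summed to 88.4 to 278 CPM in EDL and 102 to 218 CPM in SOL. Their part in the differences of Car3 and Fabp4 was not tested. In whole muscle, fewer adipocytes and less RNA per adipocyte cannot be told apart.

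In Cre+ muscles the difference had the same direction for all 9 genes and was called for 7, against 14.5% of all tested genes called lower and 13.1% called higher. The median log2 fold change of the 9 was -1.37. Adipoq lay between 3.39 and 12.9 FPKM in the 6 Cre+ EDL libraries (median 6.33) and between 2.95 and 30.9 in the 6 Cre+ SOL libraries (median 19.8). The lowest value of all 12 was thus a SOL library, the second replicate of 5.5 days. Adipoq was 2.48-fold lower in Cre+ EDL and was not called (log2 fold change -1.31 ± 0.59, edgeR adjusted p = 0.0758), nor was Retn (-1.06 ± 0.54, adjusted p = 0.117). Fabp4, Pparg and Car3 were 1.82-, 2.01- and 7.75-fold lower, close to their folds in Cre- muscles. Whether the muscle difference itself differed between the genotypes was tested only within each day (further on).

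The calls of Plin1, Cidec, Cfd and Lep in Cre+ muscles, with edgeR adjusted p values between 0.0245 and 0.0449, rested on single libraries. Leaving out 1 of the 12 Cre+ libraries left between 3 and 8 of the 9 genes called. The count was 3 without EDL 2.5 days replicate 1, EDL 5.5 days replicate 2, EDL 8.5 days replicate 1, SOL 2.5 days replicate 2, SOL 5.5 days replicate 1 or SOL 8.5 days replicate 1, it was 4 without SOL 8.5 days replicate 2, and it was 8 without SOL 5.5 days replicate 2, the library with little Adipoq. With a block for the mouse, where equal replicate numbers were taken to pair EDL and SOL muscles, all 9 were called. Adipoq then had an adjusted p of 0.0339 and Retn of 0.0414 (edgeR). With Xist as a covariate 5 were called, and the adjusted p of Cidec was 0.05002 and that of Cfd 0.0667 (edgeR). In Cre- muscles all 9 were called whichever library was left out.

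**Figure D2:**
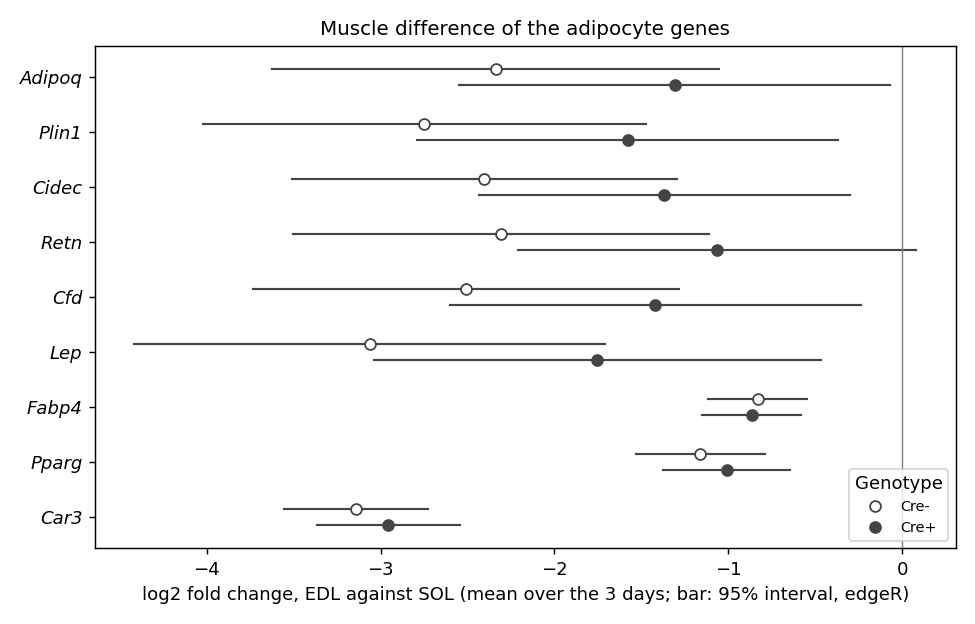
Log2 fold change of EDL against SOL for 9 adipocyte genes (x axis), as the mean over the 3 days in Cre- (open) and Cre+ (filled) muscles, with bars for the 95% interval from edgeR. All points lie below 0, the intervals of Fabp4, Pparg and Car3 are narrow, and in Cre+ muscles that of Retn crosses 0.

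EDL and SOL libraries of the same replicate number were also compared pair by pair. They were taken as 2 muscles of a mouse, which was inferred and not read from the labels. Adipoq was higher in SOL in 10 of 12 pairs, by a median ratio of 3.59 and a range of 0.559 to 24.4. The 2 pairs with more Adipoq in EDL, Cre- 2.5 days replicate 2 and Cre+ 5.5 days replicate 2, were those with the low SOL library. Lep, Cidec and Cfd were higher in SOL in 11 of 12 pairs and Plin1 and Retn in 10. Fabp4, Pparg and Car3 were higher in SOL in 12 of 12, by median ratios of 1.84, 2.10 and 8.49.

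Libraries of the same group differed widely in adipocyte transcripts. Adipoq differed between the 2 replicates of a group by a median of 2.87-fold and by up to 9.87-fold (Cre- SOL, 2.5 days). The same held for Plin1, with a median of 2.62-fold and a maximum of 12.5-fold, and for Lep, with 1.96-fold and 14.8-fold. Fabp4, Pparg and Car3 stayed within 1.64-, 1.69- and 2.05-fold between replicates of a group.

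The low libraries were low in several genes at once. In SOL, Cre+ 5.5 days replicate 2 and Cre- 2.5 days replicate 2 were the 2 lowest of the 12 libraries in each of Adipoq, Plin1, Cidec, Retn, Cfd and Lep. The former had 153 counts of Adipoq, 43 of Plin1 and 18 of Lep, and the latter 183, 56 and 43, where the other 10 SOL libraries had 667 to 2179 counts of Adipoq. In EDL the 2 lowest in all 6 genes were the Cre- replicates 2 of 5.5 and 8.5 days, with 67 and 74 counts of Adipoq against 199 to 752 in the other 10. Fabp4 was not low in the same SOL libraries. It ranked 7 and 8 from the lowest of 12 there, at 482 and 541 FPKM, and Car3 ranked 6 and 1, at 2612 and 1558 FPKM.

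Adipoq was set against the other tested members within each muscle, over 12 libraries, in 16 correlations on log2 CPM. In SOL, Pearson's r was 0.986 with Cidec, 0.985 with Plin1, 0.979 with Cfd, 0.954 with Retn and 0.916 with Lep, and Spearman's rho 0.958, 0.972, 0.930, 0.944 and 0.860. The permutation p values of r (100000 resamples, two-sided) were 1e-05 for the first 4, the smallest that they can give, and 9e-05 for Lep (2.67e-05 and 0.000144 after adjustment over the 16). The permutation p of rho was 6.4e-04 or less for these 5, and 0.00114 or less after adjustment. Without the 2 low libraries, which lie farthest from the median of Adipoq, r was still 0.953 with Cidec, 0.932 with Plin1, 0.923 with Cfd, 0.908 with Retn and 0.765 with Lep.

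The same genes went together in EDL. Over the 12 libraries r was 0.971 with Cfd, 0.961 with Retn, 0.935 with Cidec, 0.918 with Plin1 and 0.773 with Lep, and rho 0.923, 0.881, 0.909, 0.860 and 0.664, with adjusted permutation p values of r from 2.67e-05 to 0.00483 and of rho from 8e-05 to 0.0289. Without the 2 low EDL libraries r was 0.929 with Cfd, 0.925 with Retn, 0.850 with Cidec and 0.799 with Plin1, and it dropped to 0.444 with Lep, so the relation with Lep in EDL rests on those libraries. Pparg, the receptor upstream of most of these genes, had r = 0.898 and rho = 0.811 in EDL (adjusted permutation p = 0.000144 and 0.00328) and r = 0.658 and rho = 0.804 in SOL (adjusted permutation p = 0.0227 and 0.00371).

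Fabp4 and Car3 behaved differently. With Adipoq, r was 0.269 for Fabp4 and 0.233 for Car3 over the EDL libraries, and 0.279 for Fabp4 and 0.233 for Car3 over those of SOL, with adjusted permutation p values of 0.45 to 0.468. For Fabp4 rho was 0.0699 in EDL and 0.615 in SOL, and for Car3 0.371 and -0.203, of which only the 0.615 of Fabp4 had an adjusted permutation p under the 0.05 level, at 0.0466. In SOL without the 2 low libraries r rose to 0.861 for Fabp4 and fell to -0.539 for Car3, so neither pooled value describes all 12 libraries. Days and genotypes are pooled in these correlations.

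**Figure D3:**
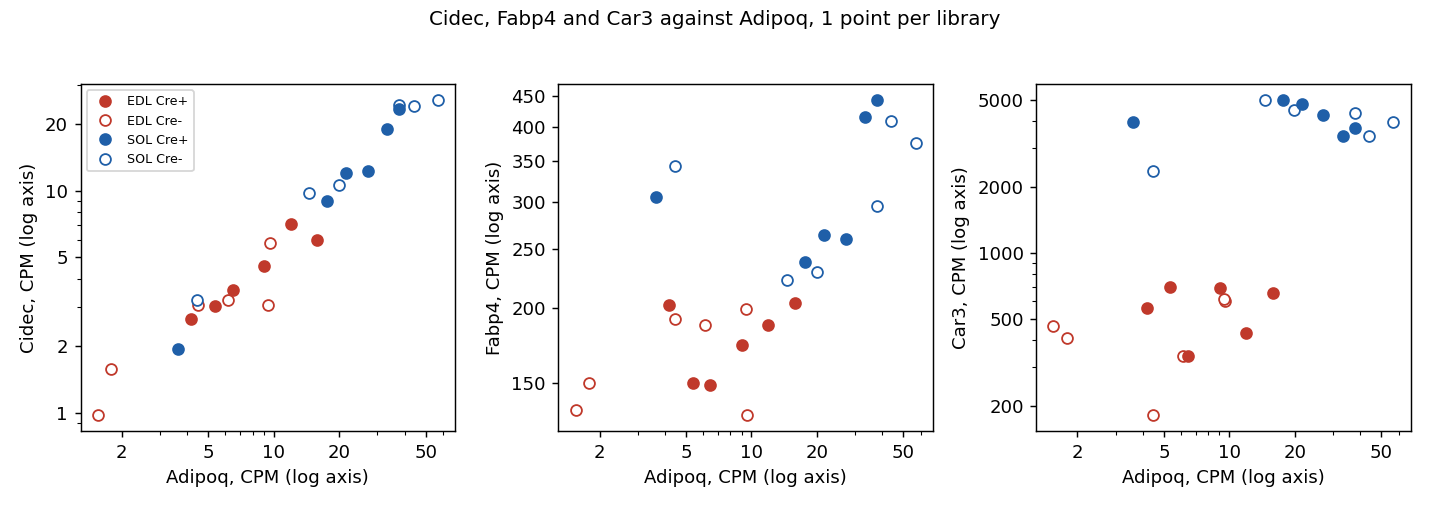
Cidec, Fabp4 and Car3 against Adipoq, each in CPM on log axes, with 1 point per library (red EDL, blue SOL, open Cre-, filled Cre+). Cidec follows Adipoq through both muscles, whereas the 2 SOL libraries with little Adipoq keep Fabp4 and Car3 levels above all EDL libraries.

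Likeness to Adipoq was also ranked across all genes. With the mean of each muscle removed, the 8 genes outside the 10 whose log2 CPM was most like that of Adipoq over the 24 libraries were Cdo1 (r = 0.956), Lgals12 (0.948), Slc7a10 (0.948), Ces1f (0.937), A530016L24Rik (0.908), Pck1 (0.906), Tmem45b (0.9) and Nnat (0.884), out of 12668 genes ranked. Cdo1 is cysteine dioxygenase, Lgals12 a galectin of lipid droplets, Pck1 the enzyme that feeds glycerol synthesis in fat, and Nnat neuronatin. Cdo1 lay between 1.06 and 5.49 FPKM in EDL and between 1.43 and 16.9 in SOL. On the same measure r was 0.975 for Cfd, 0.964 for Cidec, 0.957 for Retn, 0.956 for Plin1, 0.862 for Lep and 0.724 for Pparg, but 0.273 for Fabp4 and 0.218 for Car3, which 1217 and 1995 of the ranked genes exceeded. These values describe the libraries and were not tested.

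No change of the 9 genes with OSKM induction was detectable at this number of mice. In EDL muscles 0 of 9 were called after 2.5 days, when 25.1% of all tested genes were called, 0 of 9 after 5.5 days (0.304%) and 0 of 9 after 8.5 days (16%). In SOL muscles 0 of 9 were called after 2.5 days (0.724% of all genes), 5.5 days (0%) and 8.5 days (0.685%). After 5.5 days Pou5f1 was at only 0.0785 and 0.387 FPKM in Cre+ SOL, so that comparison could show little of OSKM. In Cre+ EDL of that day it was at 1.02 and 27.7 FPKM. None of the 54 values had an unadjusted p under 0.05 in edgeR, and DESeq2 also called 0 of 9 in each of the 6 comparisons. The 0% for SOL after 5.5 days is 0 of 15478 genes in edgeR, with 597 at an unadjusted p under 0.05, and 0 in DESeq2 on the 24 libraries or 34 on the 4 alone.

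The intervals show what could have been missed. In EDL, Adipoq had 5.0 and 3.64 FPKM in Cre- and 3.39 and 9.75 in Cre+ muscles after 2.5 days, and 7.68 and 1.46 against 4.36 and 12.9 after 8.5 days. The genotypes overlapped on both days. The log2 fold changes were 0.27 (95% interval -1.92 to 2.45) and 0.76 (-1.43 to 2.95), so rises of more than 4-fold, and falls of 1.43 on the log2 scale, lie inside both intervals. After 5.5 days the values were 7.81 and 1.26 in Cre- and 7.37 and 5.28 in Cre+ EDL muscles (log2 fold change 0.32, -1.85 to 2.50). The direction turned on all 3 days without a single library, to -0.63 after 2.5 days without Cre+ replicate 2, to -0.44 after 5.5 days without Cre- replicate 2 and to -0.30 after 8.5 days without Cre+ replicate 2.

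In SOL, Adipoq had 35.9 and 3.63 FPKM in Cre- and 27.1 and 30.9 in Cre+ muscles after 2.5 days (log2 fold change 0.36, 95% interval -1.72 to 2.44). After 5.5 days it had 11.9 and 30.8 against 14.4 and 2.95 (-1.37, -3.52 to 0.77), and after 8.5 days 46.3 and 16.2 against 17.5 and 22.1 (-0.72, -2.80 to 1.36). The genotypes overlapped on all 3 days, and the direction turned to -0.48 after 2.5 days without Cre- replicate 2 and to 0.31 after 8.5 days without Cre- replicate 1. Cidec in SOL after 5.5 days had the largest fitted fall of the 54, with 5.75 and 14.3 FPKM in Cre- and 5.30 and 1.14 in Cre+ muscles (log2 fold change -1.71, -3.56 to 0.13), and was not called (edgeR adjusted p = 1). Those Cre+ libraries had Pou5f1 at only 0.0785 and 0.387 FPKM.

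Fabp4, Pparg and Car3 left less room. For Fabp4 the 6 fitted log2 fold changes ran from -0.28 to 0.12 with standard errors of 0.23. In EDL it had 295 and 302 FPKM in Cre- and 319 and 295 in Cre+ muscles after 2.5 days, and 314 and 237 against 236 and 321 after 8.5 days. The mean FPKM was thus slightly higher in Cre+ muscles (307 against 298, and 279 against 275), whereas the fit, whose TMM factors after 2.5 days were 1.15 and 1.21 in Cre+ and 0.96 and 0.92 in Cre- EDL libraries, gave -0.28 and -0.17 on the log2 scale, so the direction depended on the scaling. The same held for Pparg in EDL after 2.5 days, with mean FPKM of 1.67 in Cre+ and 1.36 in Cre- muscles and a fitted -0.03. Car3 came nearest to a call, in EDL after 2.5 days, with 223 and 119 FPKM in Cre- and 370 and 283 in Cre+ muscles (log2 fold change 0.63 ± 0.31, edgeR adjusted p = 0.144). It was called with library sizes taken as they are (0.94, adjusted p = 0.0267) and without the first Cre- replicate (1.12, adjusted p = 0.0414).

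**Figure D4:**
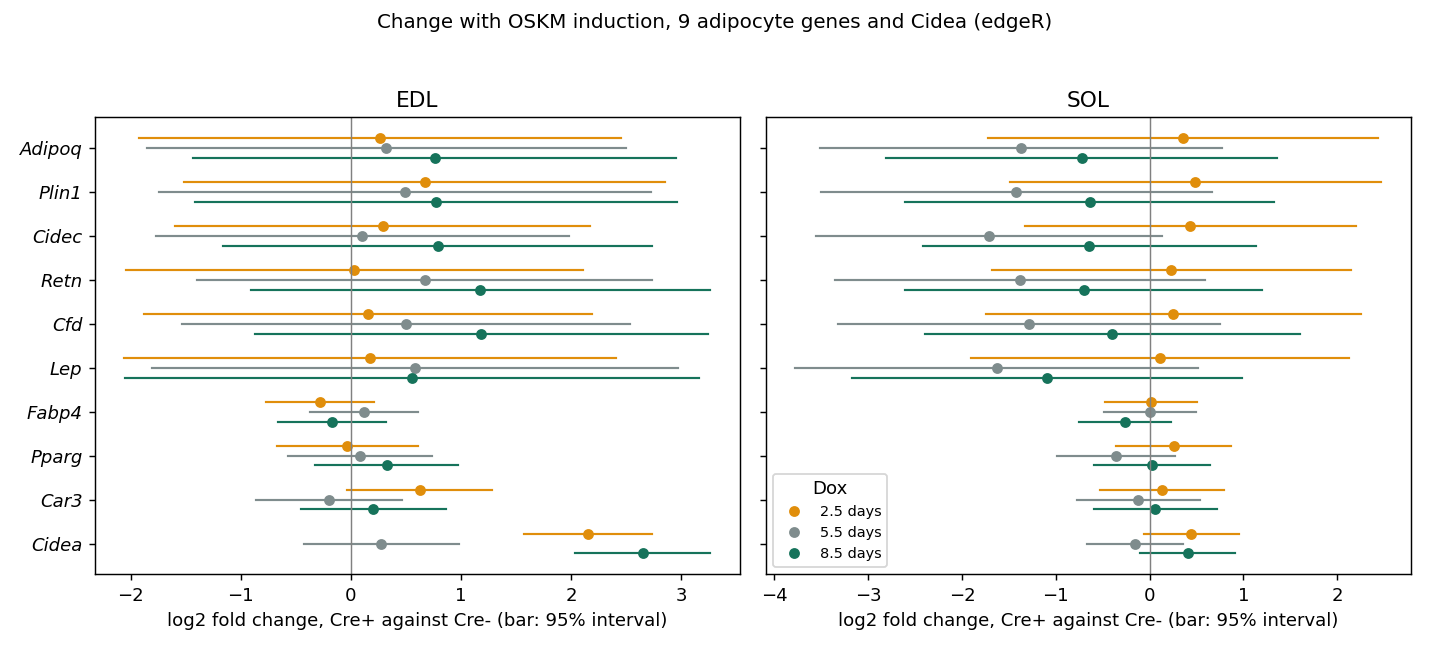
Log2 fold change of Cre+ against Cre- muscles (x axis) for the 9 adipocyte genes and Cidea, with bars for the 95% interval from edgeR, in EDL (left) and SOL (right) after 2.5 (orange), 5.5 (grey) and 8.5 days (green) of Dox. All 54 intervals of the 9 genes include 0, and only Cidea in EDL after 2.5 and 8.5 days lies clear of it.

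The change with OSKM did not differ detectably between the muscles either. For the 9 genes the difference of the Cre change, EDL minus SOL, was called in 0 of 9 on each day, where 7.48% (2.5 days), 0.0129% (5.5 days) and 0.53% (8.5 days) of all tested genes were called. None of the 27 values had an unadjusted p under 0.05 in edgeR and DESeq2 called 0 of 9 each time. The median difference of the 9 on the log2 scale was -0.10, 1.78 and 1.43 on the 3 days, and the standard errors reached 1.57.

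Days of Dox were compared within each muscle over both genotypes, where a call needs only the adjusted p. In EDL 1 of 9 genes was called, Car3, against 36.7% of all tested genes. Car3 had 119 to 370 FPKM in the 4 EDL libraries of 2.5 days, 221 to 452 in those of 5.5 days and 269 to 459 in those of 8.5 days, and the ranges overlapped. Against 2.5 days its log2 change was 0.76 after 5.5 days and 0.74 after 8.5 days (edgeR adjusted p = 0.0211). In SOL 1 of 9 was called, Fabp4, against 38.7% of all tested genes. It had 541 to 698 FPKM after 2.5 days, 350 to 482 after 5.5 days and 361 to 591 after 8.5 days, with log2 changes of -0.45 and -0.49 (edgeR adjusted p = 0.0387). The EDL call was lost without replicate 2 of either genotype at 2.5 days. The SOL call was lost without any 1 of 6 libraries, the Cre+ replicates of 2.5 and 8.5 days and replicate 1 of either genotype at 5.5 days. The 2.5-day libraries are also those with almost no Xist, and with Xist as a covariate both calls were lost. Adipoq, Plin1, Cidec, Retn, Cfd, Lep and Pparg had adjusted p values from 0.138 to 0.942 in the 2 muscles.

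Other genes of lipid handling were taken as lists. Of 12 genes of lipid droplets and lipolysis, 11 were lower in Cre- EDL than in Cre- SOL and 0 higher, where 13.3% of all tested genes were lower and 11.6% higher. They included Cidea, a droplet protein of the family of Cidec (log2 fold change -3.40), Plin5, the perilipin of oxidative muscle (-1.75), Lipe, hormone-sensitive lipase (-1.23), and Pnpla2, adipose triglyceride lipase (-0.82). The others were Adrb3, Acvr1c, Mgll, G0s2, Plin2, Plin4 and Aqp7. Of 8 genes of fatty acid and glucose uptake, 6 were lower and 0 higher, led by Fabp3, the heart and muscle fatty acid binding protein (-2.68), and Lpl, lipoprotein lipase (-1.92), with Acsl1, Slc27a1, Cd36 and Fabp5. Fabp3, Plin5 and Slc27a1 are products of oxidative muscle fibers as well.

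Of 14 genes of fatty acid and triglyceride synthesis, 7 were lower and 3 higher in Cre- EDL, beside the same shares of 13.3% and 11.6% over all tested genes. Pck1 (log2 fold change -2.67), Dgat2 (-2.64), Scd1, Agpat2, Fasn, Acaca and Thrsp were lower, and Gpd1 (3.15), Me1 and Lpin1 higher. Of 12 adipogenic regulators 2 were lower, Cebpa (-1.35) and Zfp423, and 3 higher, Dlk1 (1.53), Rxra and Srebf1. Of 10 secreted proteins and receptors 3 were lower, Nnat (-3.18), Lgals12 (-2.45) and Rbp4 (-1.62), and 0 higher. Of the 11 tested genes of brown and beige fat, 2 were lower, Cidea and Pdk4, and 2 higher, Tbx1 and Tmem26, and Ucp1 was not tested. The shares of lower genes among the regulators and the brown and beige genes were near that over all genes. In Cre+ muscles, where 14.5% of all tested genes were lower and 13.1% higher, the lower and higher counts were 8 and 0 (droplets), 6 and 0 (uptake), 3 and 2 (synthesis), 4 and 2 (regulators), 2 and 1 (secreted) and 3 and 1 (brown and beige).

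Some of these genes were called with OSKM in EDL. The droplet gene Cidea had 33 and 44 counts in Cre- and 259 and 184 in Cre+ EDL muscles after 2.5 days, 29 and 13 against 23 and 29 after 5.5 days, and 25 and 21 against 238 and 197 after 8.5 days. It rose 4.46-fold after 2.5 days (log2 fold change 2.16 ± 0.27, edgeR adjusted p = 2.78e-05) and 6.28-fold after 8.5 days (2.65 ± 0.29, adjusted p = 2.00e-05). In SOL it had 293 and 312 counts in Cre- and 634 and 391 in Cre+ muscles after 2.5 days and was not called (log2 fold change 0.44, edgeR adjusted p = 0.413). After 8.5 days it had 260 and 256 counts in Cre- and 556 and 352 in Cre+ SOL muscles and was not called either (0.41, edgeR adjusted p = 0.827). In SOL the genotypes did not overlap on either of these days. The share of all tested genes without such overlap is not given here. The rise was larger in EDL than in SOL after 2.5 and 8.5 days (differences of 1.71 and 2.24 on the log2 scale, edgeR adjusted p = 0.0104 and 0.0137), though leaving out single libraries ended these calls. At 2.5 days the adjusted p was 0.0606 without Cre- EDL replicate 1 and 0.0673 without Cre+ SOL replicate 2, and at 8.5 days it was 0.0695 without Cre- EDL replicate 1, 0.0643 without Cre+ EDL replicate 1 and 0.112 without Cre+ SOL replicate 2 (edgeR).

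In EDL after 2.5 days, when 14.6% of all tested genes were called higher and 10.5% lower, 4 of 8 uptake genes fell, Slc2a4 (the insulin-sensitive glucose transporter, log2 fold change -1.32), Slc27a1, Gpihbp1 and Acsl1, and 0 rose. Of the regulators 5 of 12 fell, Cebpd (-1.55), Mlxipl, Klf15, Srebf1 and Nr1h3, and 1 rose, Zfp423 (1.05). Of the synthesis genes 3 of 14 rose, Agpat2 (2.35), Elovl6 and Thrsp, and 2 fell, Gpd1 (-1.93) and Lpin1. Of the 12 droplet genes 1 rose, Cidea, and 2 fell, Pnpla2 (-0.87) and Plin5. Of the 11 tested brown and beige genes 1 rose, Cidea again, and 3 fell, Ppargc1a, Cox7a1 and Cox8b. The droplet and synthesis counts were near the shares over all tested genes. After 8.5 days 7.8% of all tested genes were called higher and 8.23% lower. The counts were then 0 up and 4 down of 8 (uptake), 0 and 5 of 12 (regulators) and 2 and 2 of 14 (synthesis). They were 1 and 1 of 12 (droplets, near those shares) and 1 and 2 of 11 (brown and beige). No secreted protein or receptor of the list was called in EDL on these days (0 of 10), and after 5.5 days no gene of these lists was called in either muscle. In SOL, Pnpla2 was called after 2.5 days (-0.71) and Itih4 after 8.5 days.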

How the data were processed

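The 10 genes, the gene lists and the tests were chosen with earlier results of these data known. Per the labels and the study's methods, poly(A) RNA of whole muscles was sequenced as stranded single-end reads, aligned to mm10 with STAR 2.5.3a and counted by the authors with HOMER over RefSeq exons. The deposited values are raw counts per gene. Totals per library were 36088781 to 54679082 counts. CPM and FPKM were computed from the counts, library totals and exon lengths, without further scaling.

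Tests used edgeR 4.0.16 (R 4.3.3) with TMM factors, genes kept by filterByExpr at a minimum count of 10, and 1 quasi-likelihood fit over 12 groups. A call needs an adjusted p below 0.05 and a log2 fold change beyond 0.5 in either direction, as in the study, which used DESeq2 on pairs of groups; DESeq2 1.42.0 was an alternative here. The comparisons were EDL against SOL within each genotype, Cre+ against Cre- in each muscle and day, the difference between muscles, and days within a muscle. Correlations used log2 CPM with a prior count of 2. Correlations were planned for 18 pairs; Ucp1 had too few counts, which left 16.

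Named genes were the 10, the called members of each lipid list, and the 8 genes most like Adipoq. Between replicate numbers, deviations of EDL and SOL correlated at 0.173 to 0.445 in all 6 pairs of groups, so the numbers were taken to pair muscles of a mouse; those of Cre+ and Cre- correlated at -0.169 to 0.0578 and were not. Replicates were not duplicates of one library, since their counts differed beyond sampling noise. The fit was tested on simulated data. Alternatives were other scalings and filters, DESeq2, Xist as a covariate, replicate blocks, the 16 libraries of 2.5 and 8.5 days, and leaving out each library. The motif TTGCGCAA was added after the data were seen.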

Additional observations from a re-analysis of the deposited data

Results flagged for a closer look

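No single group could be searched for an outlying library, since each has 2. For 8 values, of 7 genes outside the 10 adipocyte genes, the change with OSKM differed between EDL and SOL in the edgeR test of that difference. After 2.5 days these were 1 of 12 droplet, 1 of 14 synthesis, 1 of 8 uptake and 3 of 12 regulator genes. Of the other lists they were 0 of 10 secreted and 1 of 11 brown and beige genes (Cidea again), beside 7.48% of all tested genes. Most of these counts are near that share. After 8.5 days they were Cidea (1 of 12 droplet and 1 of 11 brown and beige genes) and 1 of 10 secreted genes. The share over all tested genes was then 0.53%. The values are EDL minus SOL on the log2 scale. After 2.5 days they were 1.71 for Cidea (adjusted p = 0.0104), -1.61 for Gpd1 (0.00848), -1.05 for Slc2a4 (0.0132), -0.99 for Srebf1 (0.0301), -0.93 for Mlxipl (0.0341) and 1.36 for Zfp423 (0.00461). After 8.5 days they were 2.24 for Cidea (0.0137) and 4.01 for Itih4 (0.0369). Itih4, an inhibitor heavy chain that liver secretes, differed on the day on which the Cre- SOL libraries held 501 and 3719 counts of Alb. All 8 liver transcripts of the list fell in Cre+ against Cre- SOL muscles on that day (0.362% of all tested genes). In EDL muscles 4 of the 8 fell (8.23% of all tested genes), Apoa2, Fgb, Alb and Apoa1. The part of liver transcripts in the Itih4 value was not tested. None of the 9 adipocyte genes moved in opposite directions in every library of the 2 muscles on any day.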

How the results depend on the processing

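In Cre- muscles all 9 genes were called lower in EDL under each of the 8 other settings and without any 1 of the 12 libraries. In Cre+ muscles 7 were called, 5 with Xist as a covariate, 9 with the replicate block for the mouse, and 3 to 8 when 1 library was left out. For Cre+ against Cre- in EDL after 2.5 days the count of 0 became 1 (Car3) with library sizes alone and was 0 to 1 when 1 library was left out. The counts for the other 5 comparisons of Cre+ with Cre- and for the 3 differences between muscles were 0 in all settings run, with the replicate block too. For days in EDL the count of 1 became 0 with Xist as a covariate and was 0 to 1 without 1 library. For days in SOL it became 0 with Xist as a covariate and with the 16 libraries of 2.5 and 8.5 days, 2 with DESeq2, 2 with library sizes alone and 2 with a block for the replicate number, and was 0 to 1 without 1 library. The cause was not tested. Without 1 library the log2 fold change of Adipoq ran from -0.63 to 0.78, from -0.44 to 2.17 and from -0.30 to 2.37 in EDL after 2.5, 5.5 and 8.5 days, and from -0.48 to 2.86 and from -1.32 to 0.31 in SOL after 2.5 and 8.5 days, and that of Cidea in EDL after 5.5 days from -0.041 to 0.76. Of the 54 Cre values of the 9 genes, 37 changed sign without some library and 4 under another setting, none of them called; of the 18 muscle values 0 did. Adipoq was 3.71-fold higher in SOL than in EDL on the mean of CPM and 3.72-fold with TMM factors, and 12 of 16 correlations passed under both scalings. Lep had the largest standard errors in both muscle comparisons (0.64 and 0.61), and Fabp4 the smallest (0.13).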
